A study of Mus musculus with 2 samples.

Results

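Interleukin 17 type gamma delta T cells were studied in single-cell RNA-seq data from mouse gut lamina propria, the connective tissue layer under the gut epithelium. They were chosen as barcodes with at least 500 unique molecular identifiers (UMIs, each counting 1 captured RNA molecule), at least 200 genes and at most 10% mitochondrial UMIs. They also needed at least 1 UMI of Trdc, the constant region of the delta receptor chain, at least 1 of the CD3 chains Cd3e and Cd3g, and at least 1 over Il17a, Il17f, Il23r and Cd163l1. Barcodes with a UMI of Cd4, Cd8b1 or Cd79a, or with 3 or more UMIs over the proliferation genes Mki67 and Top2a, stayed out. This gave 90 members of 24391 cells passing the quality limits, of which 63 of 14379 were in the library labelled CD163_FL and 27 of 10012 in the library labelled CD163_NC. The members were thus chosen by the measured UMIs of 12 genes, so the levels of those genes are given as description and support nothing.

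The study compared the gut immune cells of wild type mice and of mice lacking CD163-positive macrophages, a scavenger-receptor subset of tissue macrophages. Both libraries came from CD45-positive cells, the leukocytes, isolated from colon on a density gradient and sorted without dead cells. The labels give CD163_FL and CD163_NC as names and do not state which of them is the macrophage-deficient one, by which allele the macrophages were removed, the age of the mice or the number pooled, so the libraries are called by their names here. With 1 library per name there is no spread between animals, and every interval between the libraries covers counting error only. PCR copies were collapsed by UMI, but the UMIs of 1 cell are not independent samples of the tissue.

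Gamma delta T cells carry an antigen receptor of a gamma and a delta chain in place of the alpha and beta chains of most T cells. A subset of them is committed in the mouse thymus to secrete interleukin 17, uses the transcription factors Maf and PLZF (Zbtb16), and answers interleukin 1 beta and interleukin 23, made largely by myeloid cells, without first meeting antigen. In barrier tissues interleukin 17 acts on epithelial and stromal cells, which then make antimicrobial proteins and neutrophil-attracting chemokines. Cd163l1 (SCART1) is a scavenger receptor family gene that marks this subset in the mouse; it is a different gene from the macrophage gene Cd163 in the names of the libraries.

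The promoter stretches of the 3 gate genes of the interleukin 17 and 23 axis are shown because the gate rests on their transcripts. They are RefSeq sequences of build GRCm38.p6, from 250 bases before to 50 bases after the annotated start, read 5′ to 3′ on the gene's strand. Capitals mark matches on either strand to the ROR core letters, spelled AGGTCA, and to the AP-1 site, spelled TGANTCA. They also mark matches to the TATA box, spelled TATAAA. Only the core of the ROR element was searched, so a match does not show a full element. The STAT site, spelled TTCNNNGAA, was searched as well and had no match in the 3 stretches. Il17a lies at chr1:20730655-20730954 on the plus strand, Il17f at chr1:20784221-20784520 on the minus strand and Il23r at chr6:67491806-67492105 on the minus strand.
Il17a: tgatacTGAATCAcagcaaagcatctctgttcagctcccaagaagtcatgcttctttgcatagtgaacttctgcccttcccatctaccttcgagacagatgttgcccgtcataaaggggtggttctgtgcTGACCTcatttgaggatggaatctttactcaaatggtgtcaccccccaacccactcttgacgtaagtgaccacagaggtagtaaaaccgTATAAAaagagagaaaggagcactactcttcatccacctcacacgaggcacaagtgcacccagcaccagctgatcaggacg
Il17f: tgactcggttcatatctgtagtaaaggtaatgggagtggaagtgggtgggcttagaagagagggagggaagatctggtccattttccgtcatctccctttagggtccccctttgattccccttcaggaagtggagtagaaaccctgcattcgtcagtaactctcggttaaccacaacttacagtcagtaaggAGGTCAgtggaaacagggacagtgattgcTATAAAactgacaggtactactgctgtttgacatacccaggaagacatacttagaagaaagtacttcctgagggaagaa
Il23r: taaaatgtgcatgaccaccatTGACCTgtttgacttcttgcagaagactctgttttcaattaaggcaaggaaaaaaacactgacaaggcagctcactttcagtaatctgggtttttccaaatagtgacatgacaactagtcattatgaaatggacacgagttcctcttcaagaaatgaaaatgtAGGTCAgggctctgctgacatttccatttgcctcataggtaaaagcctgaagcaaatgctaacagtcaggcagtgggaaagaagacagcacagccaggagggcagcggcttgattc
The ROR core letters were found in 1 place each in the Il17a and Il17f windows and in 2 places in the Il23r window. Il17a and Il17f also hold the TATA letters, 31 and 29 bases before the start at their first base, and Il17a the AP-1 letters. Of 32851 promoters of the same length, 16.3% hold the ROR core letters on either strand, 13.6% the TATA box, 7.81% the AP-1 site and 8.30% the STAT site. The window of Cd163l1, at chr7:140218017-140218316 on the plus strand, holds none of the 4 motifs.

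Members were a small population, and their share was higher in CD163_FL than in CD163_NC on the widest denominator. They made up 0.438% of cells in CD163_FL (exact binomial 95% interval 0.337 to 0.560) and 0.270% in CD163_NC (0.178 to 0.392), a ratio of 1.62 (95% interval 1.04 to 2.55). The cells that passed every condition of the gate other than the type 17 requirement were 1.24% of cells in CD163_FL and 0.949% in CD163_NC, a ratio of 1.31 (1.02 to 1.68). Of those Trdc-positive T cells, 35.2% of 179 were members in CD163_FL and 28.4% of 95 in CD163_NC, a ratio of 1.24 (0.850 to 1.80) whose interval includes 1. With every cell thinned to 1000 UMIs before the rule was applied, the ratio over all cells was 1.24 (0.631 to 2.43), and among cells of at least 1000 UMIs 1.56 (0.998 to 2.45). Among cells with a Cd3e or Cd3g UMI the unthinned ratio was 1.22 (0.778 to 1.91). Type 17 CD4 T cells, the conventional helper cells with the same cytokine, were 0.897% of cells in CD163_FL and 0.739% in CD163_NC (ratio 1.21, 0.913 to 1.61). A share of cells also moves with how many other cells were captured beside them.

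Depth was similar in the 2 sets of members. Their median was 5518 UMIs and 1998 genes per cell in CD163_FL (1756 to 11145 UMIs) and 5929 UMIs and 2149 genes in CD163_NC (2912 to 14249 UMIs). Ribosomal protein genes took 10.5% of members' UMIs in CD163_FL and 14.9% in CD163_NC, and mitochondrial genes 2.35% and 1.64% in the same order. Of the deposited barcodes, 49 sequences occurred in both libraries, and none of these was a member in both. The doublet caller Scrublet marked 655 barcodes (4.29%) in CD163_FL and 272 (2.62%) in CD163_NC, and 0 members.

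Among the 4 type 17 genes of the gate, Il23r and Cd163l1 were found in most members and Il17f in few. Il23r, the specific subunit of the interleukin 23 receptor, had a UMI in 88.9% of members in CD163_FL and 70.4% in CD163_NC, and Cd163l1 in 88.9% and 85.2%. Il17a had a UMI in 38 of 63 members in CD163_FL (60.3%, 47.2 to 72.4) and in 8 of 27 in CD163_NC (29.6%, 13.8 to 50.2). Il17f was seen in 7.94% of members in CD163_FL and 7.41% in CD163_NC. Cd79a-positive B lineage cells, which should not make these genes, had a UMI of any 1 of the 4 in at most 0.921% of cells, at median depths of 9254 UMIs in CD163_FL and 7876 in CD163_NC. Members had to hold at least 1 of these genes, so nothing is read from their shares against that background.

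Members with several of these genes outnumbered those with 1. In CD163_FL 8 members had exactly 1 of the 4 genes, 22 had 2, 29 had 3 and 4 had all of them; in CD163_NC 8 had 1, 14 had 2, 4 had 3 and 1 had all. Just inside the threshold, 3 members in CD163_FL and 4 in CD163_NC had exactly 1 UMI over the 4 genes. Of these, 0 and 1 carried Trdv4, 0 and 2 Il1r1, 2 and 2 Zbtb16, and 1 and 3 Blk. Among members with 2 or more such UMIs, 33 of 60 in CD163_FL and 17 of 23 in CD163_NC carried Trdv4, 45 and 17 Il1r1, 47 and 17 Zbtb16, and 44 and 16 Blk. The threshold members had a median depth of 3389 UMIs in CD163_FL and 5878 in CD163_NC, against 5634 and 5929 in the others. Just outside it, of the Trdc-positive T cells with no type 17 UMI, 4.31% of 116 in CD163_FL and 2.94% of 68 in CD163_NC carried Trdv4. Among barcodes kept out by 1 condition alone, 149 in CD163_FL and 61 in CD163_NC lacked only a Trdc UMI, 5 and 4 only had a Cd4 UMI, 10 and 3 a Cd8b1 UMI, and 4 and 9 a Cd79a UMI.

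Per-cell values show how uneven Il17a was. In CD163_FL a member held 0 to 81 Il17a UMIs with a median of 2, and in CD163_NC 0 to 25 with a median of 0. Summed over members, Il17a stood at 406 UMIs, or 1165 CPM (UMIs of the gene scaled to a fixed total of the members' own UMIs), in CD163_FL and at 48 UMIs, or 266 CPM, in CD163_NC. The richest single cell held 20.0% of the Il17a UMIs in CD163_FL and 52.1% in CD163_NC; without it the levels were 933 and 128 CPM. Il23r stood at 1257 CPM in CD163_FL and 455 CPM in CD163_NC, while Cd163l1 stood at 720 and 877 CPM. Among members with an Il23r or Cd163l1 UMI, the Il17a share was 59.0% of 61 in CD163_FL and 26.9% of 26 in CD163_NC. Over all 63 and 27 members, each thinned to 1000 UMIs, the Il17a share was 39.7% and 11.1%. These are levels of genes that chose the members, from 1 library per name, and are given as description.

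**Figure D1:**
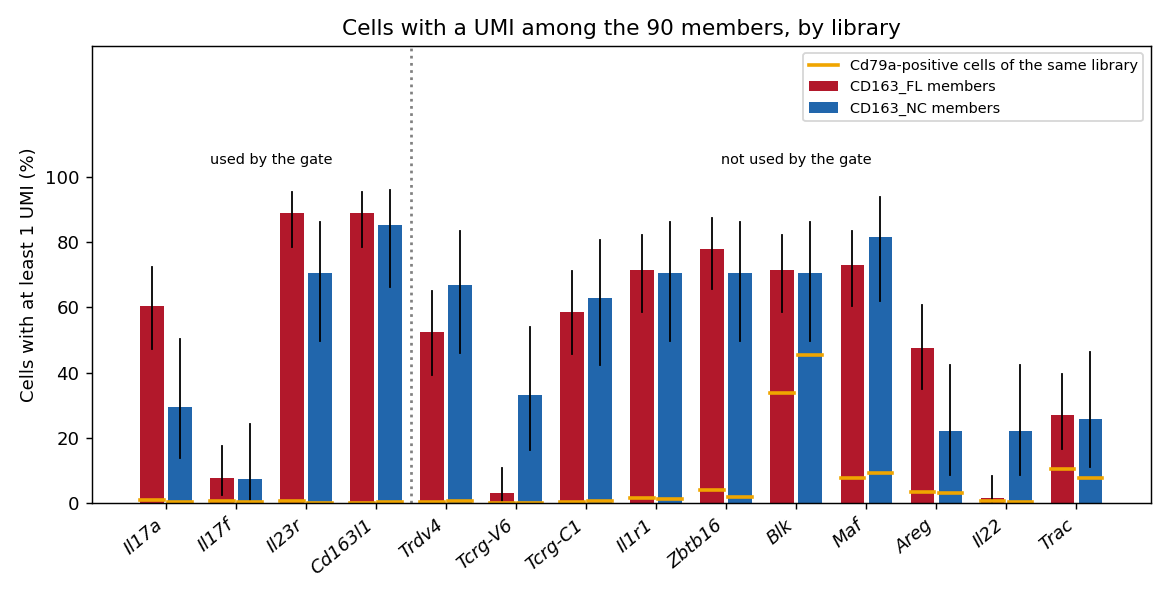
Percent of members with at least 1 UMI (vertical axis) for 14 genes, with CD163_FL bars left of CD163_NC bars, exact binomial 95% intervals as black lines and the share of Cd79a-positive cells as orange marks. Il17a stands at 60.3% in CD163_FL and 29.6% in CD163_NC, Trdv4 at 52.4% and 66.7%, and the orange mark is near 0 for most genes and high for Blk, a kinase that B cells also use.

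The gate of the type 17 CD4 T cells read Il17a, Il17f and Il23r. Members could also enter on Cd163l1 alone, as 4 of 63 in CD163_FL and 5 of 27 in CD163_NC did. The 2 gates thus bind these genes differently, and their levels are given as description. In the type 17 CD4 T cells Il17a had a UMI in 58 of 129 cells in CD163_FL and 31 of 74 in CD163_NC, at 324 and 379 CPM. Il23r stood there at 308 CPM in CD163_FL and 301 CPM in CD163_NC. Any difference between the 2 cell types in these levels was not tested, since each has 1 library per name.

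Markers that the rule did not use are given next. They were chosen with earlier results of these data known, so they describe the members and are no check of the label. Il1r1, the interleukin 1 receptor that feeds this program, had a UMI in 71.4% of members in CD163_FL and 70.4% in CD163_NC, and Zbtb16 in 77.8% and 70.4%. Of Il1r1, Zbtb16, Blk, Maf, Trdv4 and Cxcr6, at least 3 were present in 52 of 63 members in CD163_FL and 25 of 27 in CD163_NC. Ccr6, a chemokine receptor often used to find such cells in lymphoid tissue, had 0 UMIs in both libraries' members. Ncr1 was at 0 in members of both libraries, and Foxp3 likewise, but most other genes of their marker lists were present. Of 12 type 3 innate lymphoid cell markers 11 had a UMI in members of CD163_FL and 10 in CD163_NC (summed 1392 and 1582 CPM). Of 11 type 2 innate lymphoid cell markers 11 and 9 did (1191 and 389 CPM). Of 8 natural killer cell markers 7 and 5 did (83.2 and 433 CPM), and of 6 alpha beta T cell markers 5 in each library. Summed alpha beta receptor constant genes reached 761 CPM in CD163_FL and 938 CPM in CD163_NC, and summed B and plasma cell markers 6454 and 9708 CPM, mostly from Igkc (3028 and 5035 CPM) and Igha (2841 and 3819 CPM); their part in the members' other levels was not tested.

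Trdv4, a variable segment of the delta chain, had a UMI in 33 of 63 members in CD163_FL (52.4%, 39.4 to 65.1) and 18 of 27 in CD163_NC (66.7%, 46.0 to 83.5). It stood at 215 CPM in members of CD163_FL and 355 CPM in members of CD163_NC, against 12.2 and 6.76 CPM in the other Trdc-positive T cells of the same libraries. Tcrg-V6, the gamma segment that pairs with it in mouse Vgamma6 cells, had a UMI in 2 members in CD163_FL (3.17%) and 9 in CD163_NC (33.3%), and 1 and 8 members held both segments. With cells thinned to 1000 UMIs the Tcrg-V6 shares were 3.17% and 0, so no order was read from them. Tcrg-V4, the segment of the other well-known interleukin 17 lineage, had 0 UMIs in members of both libraries, which allows up to 8.61 CPM in CD163_FL and 16.7 CPM in CD163_NC.

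The coding ends of the 2 segments are shown because the receptor results name them. They are reference sequence, not read from the members, and are the last 90 bases of the GENCODE M21 transcripts on build GRCm38, plus strand; the Trdv4 stretch is chr14:54075426-54075515 and the Tcrg-V6 stretch chr13:19190840-19190929, both in the last coding exon. Capitals mark the cysteine codon that follows a pair of tyrosine codons and opens the junction with the next segment.
Trdv4: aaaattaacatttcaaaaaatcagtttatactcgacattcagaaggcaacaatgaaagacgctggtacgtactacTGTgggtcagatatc
Tcrg-V6: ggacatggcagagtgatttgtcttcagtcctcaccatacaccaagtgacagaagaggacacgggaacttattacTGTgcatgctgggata
Trdv4 was seen in 31 of 56 members with a Cd163l1 UMI and 2 of 7 without one in CD163_FL, and in 17 of 23 and 1 of 4 in CD163_NC. The exact intervals of these shares overlap in both libraries (41.5% to 68.7% and 3.67% to 71.0% in CD163_FL, 51.6% to 89.8% and 0.631% to 80.6% in CD163_NC), and the difference was not tested. The library kit reads the 3' end of transcripts, so a segment at the 5' end of the receptor RNA is caught in only some of the cells that use it. Lack of a Trdv4 UMI alone therefore does not show use of another segment. Other variable segments did have UMIs in members, namely Trgv2, Tcrg-V7 and Trdv2-2 in CD163_FL and Tcrg-V1, Trgv2, Tcrg-V7 and Trdv1 in CD163_NC. Whether these lay in cells without Trdv4 was not examined.

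Constant gamma genes were found in most members. Tcrg-C1 had a UMI in 58.7% of members in CD163_FL and 63.0% in CD163_NC, at 218 and 272 CPM. At least 1 of Tcrg-C1, Tcrg-C2 and Tcrg-C4 was seen in 68.3% and 77.8% of members. Beta chain constant genes were common as well, with Trbc2 in 71.4% of members in CD163_FL and 96.3% in CD163_NC. Trac, the alpha constant gene, had a UMI in 27.0% of members in CD163_FL and 25.9% in CD163_NC, at 97.6 and 72.2 CPM, against 419 and 615 CPM in type 17 CD4 T cells. Asking that members hold no alpha or beta constant UMI leaves 5 cells in CD163_FL and 0 in CD163_NC.

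Members were then set against 3 populations from the same libraries. These were 184 other Trdc-positive T cells (116 in CD163_FL, 68 in CD163_NC), which passed the same gate with no type 17 UMI, 203 type 17 CD4 T cells (129 and 74), and 31 type 3 innate lymphoid cell-like cells (23 and 8), which passed a gate on Il7r and 1 gene not reported here, without CD3 or Trac. UMIs were summed per library and population, and edgeR's quasi-likelihood test was run on the 8 sums with the library as a block. A difference passes (adjusted p under 0.05 over all genes tested) where it is large beside the inconsistency between the 2 libraries. That spread was estimated over the 8 sums together, the innate cells included, and is not that of 1 contrast alone. The 2 libraries measure little of the variation between animals. Genes used by either gate were left out of the counts. The 3 contrasts share the members' 2 sums, so they are not independent of each other.

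Against the other Trdc-positive T cells, members were higher in many genes of the type 17 lists and lower in genes of the cytotoxic and intraepithelial lists. Of 6436 genes tested 169 were higher (2.63%) and 77 were lower (1.20%). Il1r1 stood at 583 CPM in members of CD163_FL and 466 CPM in members of CD163_NC, against 1.22 and 0 CPM in the other Trdc-positive T cells, which held 1 UMI of it in all (ratio of pooled UMIs 687, counting interval 122 to 27232, edgeR adjusted p = 4.01e-04). Blk, a Src family kinase used in the development of these cells, stood at 474 and 272 CPM against 2.43 and 4.51 CPM (edgeR log2 fold change 6.88, adjusted p = 6.59e-04). Trdv4 was higher as well, 25.6-fold by pooled UMIs (14.5 to 49.3). In each of these 3 genes both libraries' members lay above both libraries' other cells.

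Of 12 type 17 transcription factors tested, 6 were higher, with a median log2 fold change of 1.53 against -0.07 over all genes tested. Zbtb16 stood at 967 and 583 CPM in members of CD163_FL and CD163_NC against 99.8 and 69.9 CPM in the other cells (edgeR adjusted p = 0.0157). Maf stood at 402 and 605 CPM against 48.7 and 38.3 CPM (edgeR adjusted p = 5.01e-04), and Rora, a nuclear receptor, at 4044 and 1976 CPM against 617 and 268 CPM (edgeR adjusted p = 5.96e-04). Runx1 and Bhlhe40 rose less, with log2 fold changes of 1.54 and 1.52.

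Of 13 cytokine receptors tested 5 were higher, namely Il1r1, Il18r1, Il2ra, Il7r and Tnfrsf25, the receptors of interleukins 1, 18, 2 and 7 and of the TNF family cytokine TL1A. Il2ra stood at 1013 CPM in members of CD163_FL and 339 CPM in members of CD163_NC, against 108 and 58.6 CPM. Of 11 effector cytokine genes 3 were higher. Areg, the epidermal growth factor family member amphiregulin, stood at 1002 and 205 CPM against 23.1 and 11.3 CPM (edgeR log2 fold change 5.05, adjusted p = 4.01e-04). Tnfsf11 (RANK ligand) and Furin, a protease that matures secreted proteins, were the other two. Il22, a cytokine that acts on epithelium, did not pass (edgeR adjusted p = 0.244), with nearly all its UMIs in 1 library.

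Of the 21 tested genes reported in mouse Vgamma6 cells, 14 were higher in members, with a median log2 fold change of 2.89. Among them were Icos at 1217 and 350 CPM against 185 and 60.9 CPM, Pdcd1 (PD-1) at 198 and 83.3 against 48.7 and 9.02 CPM, and S100a4 at 540 and 899 against 81.5 and 120 CPM. Igf1r, the insulin-like growth factor 1 receptor, stood at 2844 and 966 CPM in members against 29.2 and 13.5 CPM (edgeR log2 fold change 6.44, adjusted p = 4.08e-04). The same 21 genes stood out less against the other 2 populations. Of them 4 were higher than in type 17 CD4 T cells (median 1.33) and 1 than in the innate lymphoid cell-like cells (median 0.74). Icos stood at 1617 and 909 CPM in type 17 CD4 T cells of CD163_FL and CD163_NC, above the members of each library. Tissue homing genes were mixed: of 18 tested, Cd44, Cxcr6, Ccr2, Ltb4r1 and Gpr183 were higher and the integrin Itga4 was lower. Cxcr6, a receptor for a chemokine of tissue-resident niches, stood at 551 and 366 CPM against 80.3 and 38.3 CPM.

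The largest fold changes among genes with at least 50 UMIs lay partly outside the lists. Ppp1r14c, a phosphatase inhibitor, had 194 UMIs in members and 0 in the other Trdc-positive T cells, at least 155-fold higher against a floor of 3 counts over the group. Cdh10, a cadherin, and Zbtb7c, a zinc finger gene, had 82 and 61 UMIs in members against 0 (at least 65.4-fold and 48.7-fold). Abi3bp, Mcc and Ablim3 had 217, 91 and 52 UMIs against 1 each, and Sema6a, a semaphorin, 224 against 6. All of these were higher in the members of each library.

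Of 13 type 1 and cytotoxic genes 6 were lower (median log2 fold change -2.17), and of 14 intraepithelial lymphocyte genes 7 were lower (median -2.66); the lists share members. Ccl5, a chemokine of effector lymphocytes, stood at 123 CPM in members of CD163_FL and 822 CPM in members of CD163_NC, against 3657 and 4476 CPM (edgeR adjusted p = 0.0168). Gzma, granzyme A, stood at 25.8 and 366 CPM against 1869 and 2498 CPM, and Klrd1 (CD94) at 2.87 and 27.8 CPM against 381 and 433 CPM (edgeR adjusted p = 6.97e-04). Xcl1, Cd7, Cd160 and Fcer1g were lower too, as were the Src kinase Lck and the transcription factor Lef1. By fold change Prag1, Hdgfl3, Hdac9, Lrmda, Atp8a2 and Zdhhc14 were named beside them, Prag1 and Hdgfl3 with 0 UMIs in members, at least 8.49-fold and 8.35-fold lower against the floor. The neutrophil genes S100a9 and Ngp were also called lower. S100a9 stood at 0 and 66.6 CPM in members of CD163_FL and CD163_NC against 1.22 and 3118 CPM in the other cells, and Ngp at 0 and 5.55 CPM against 1.22 and 390 CPM. Both were thus high in 1 of the 4 sums, the other Trdc-positive T cells of CD163_NC, and the part of neutrophil RNA in other calls was not tested.

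The length of these lists leaned on single sums, above all on the members' own. Leaving out 1 of the 4 sums of the contrast at a time gave 20 higher and 3 lower genes without the members of CD163_FL, and 47 and 9 without those of CD163_NC. It gave 105 higher genes without the other Trdc-positive T cells of CD163_FL. Of 64 genes of the lists and named sets called here, 9 kept their call in each of those 4 fits, namely Areg, Igf1r, Il1r1, Maf, Ppp1r14c, Rora, Tmem176a, Tmem176b and Trdv4, and none changed sign.

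**Figure D2:**
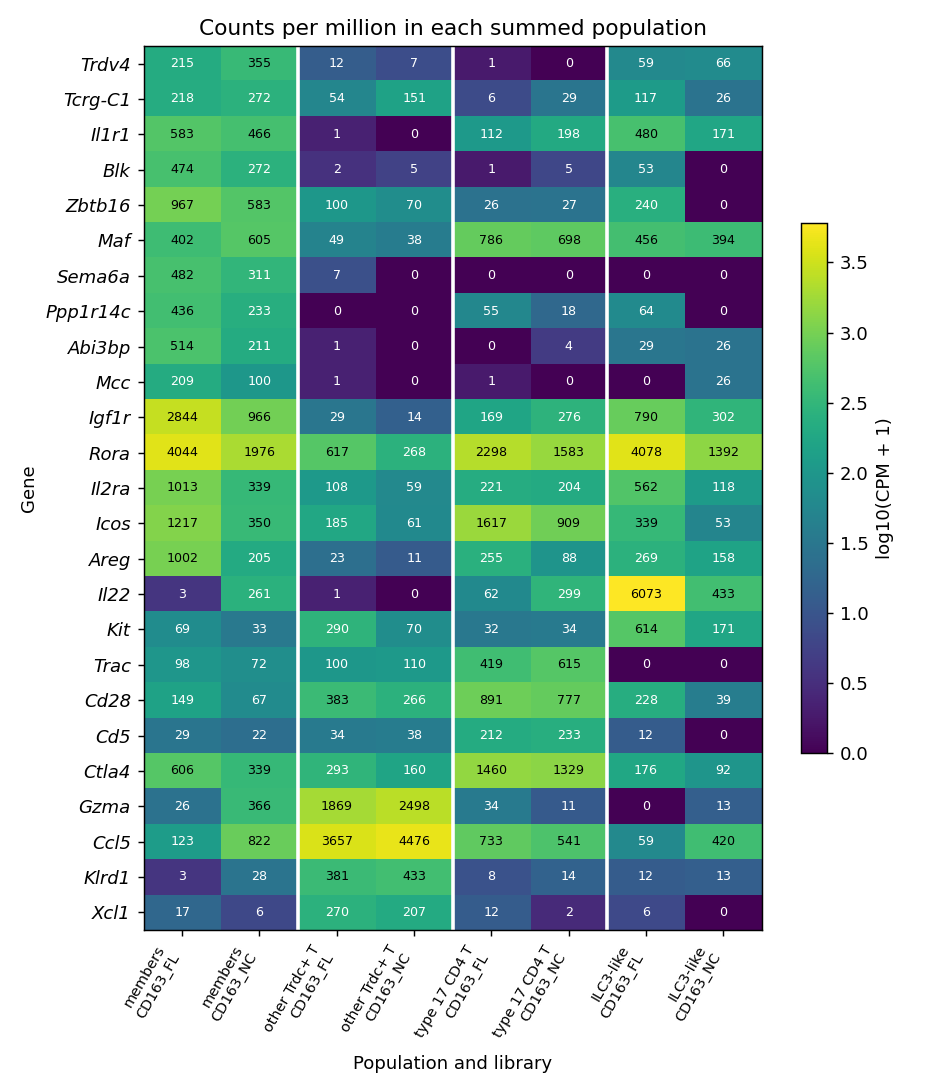
CPM of 25 genes (rows, numbers in cells, colour as log10 of CPM + 1) in each summed population, with members in the 2 leftmost columns and CD163_FL left of CD163_NC within each pair. Il1r1 reads 583 and 466 in members against 1 and 0 in other Trdc-positive T cells, Sema6a is at 0 in type 17 CD4 T cells and type 3 innate lymphoid cell-like cells, and Ccl5 is highest in other Trdc-positive T cells.

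Against type 17 CD4 T cells, which share the cytokine program, members differed in receptor, kinase and costimulatory genes. Of 6436 genes 91 were higher (1.41%) and 55 lower (0.855%). The type 17 transcription factors no longer stood out: 1 of 12, Zbtb16, was higher (967 and 583 CPM in members of CD163_FL and CD163_NC against 25.9 and 27.1 CPM, edgeR adjusted p = 0.00500). Rora had a log2 fold change of 0.62 (edgeR adjusted p = 0.427) and Maf of -0.49 (edgeR adjusted p = 0.645). Of 13 cytokine receptors 0 passed in either direction by edgeR or by DESeq2, with 4 higher at an unadjusted p under 0.05 by each tool. Il1r1 stood at 583 and 466 CPM in members against 112 and 198 CPM (edgeR adjusted p = 0.0978).

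Both gates read receptor or co-receptor genes, so differences in the related receptor genes are description. Trdv4 had 139 UMIs in members and 1 in type 17 CD4 T cells (edgeR adjusted p = 1.65e-04), and Tcrg-C1, Tcrg-C4 and Trgv2 were higher as well. Trac was lower in members (edgeR log2 fold change -2.45, adjusted p = 0.00974). Beyond the receptor, Sema6a had 224 UMIs in members and 0 in type 17 CD4 T cells, at least 237-fold higher against the floor. Srgap3, a GTPase-activating protein, stood at 410 and 377 CPM in members against 3.57 and 3.61 CPM. Blk, Abi3bp, Auts2, Mcc, Edil3 and Zbtb7c completed the largest increases; 64 of 66 Edil3 UMIs were in members of CD163_FL.

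Of 15 costimulatory and checkpoint receptors tested, 7 were lower in members than in type 17 CD4 T cells, 2 were higher and 6 did not pass, with a median log2 fold change of -2.66 against -0.04 over all genes. Tnfrsf4 (OX40) stood at 17.2 CPM in members of CD163_FL and 0 CPM in members of CD163_NC, against 497 and 411 CPM in type 17 CD4 T cells (edgeR adjusted p = 9.35e-04). Cd28, the main costimulatory receptor of alpha beta T cells, stood at 149 and 66.6 CPM against 891 and 777 CPM, and Ctla4, its inhibitory relative, at 606 and 339 against 1460 and 1329 CPM. Tigit, Lag3, Cd40lg and Tnfsf8 were also lower. Pdcd1 and Cd226 were the higher ones. Of these 9 calls, that of Tnfrsf4 held in all 4 fits that left out 1 sum and that of Tnfsf8 in 2 of them; the other 7 were lost in every one. Cd2, Cd5 and Cd6, surface proteins that tune alpha beta receptor signals, were lower, as were Lck, Slamf6 with its adaptor Sh2d1a, Tox2, Il1r2, Gpr174, Dusp14 and Atp8a2.

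Effector genes differed in a few places. Areg was higher in members (1002 and 205 CPM against 255 and 88.4 CPM, edgeR adjusted p = 0.0349) and Ifng, interferon gamma, lower (51.7 and 77.7 CPM against 479 and 399 CPM, edgeR adjusted p = 0.00812). In CD163_NC 1 cell held 70.3% of the members' Areg UMIs. Without that cell Areg stood at 61.1 CPM in those members, below the 88.4 CPM of type 17 CD4 T cells. The activating receptor Klrk1 (NKG2D) stood at 344 and 216 CPM in members against 25.0 and 37.9 CPM, and the integrin chain Itgae had 21 UMIs in members against 10. The calls of Areg and Itgae were lost in every fit that left out 1 sum. Those of Ifng, Klrk1 and, among the transcription factors above, Zbtb16 held in 1 of the 4 fits. Leaving out 1 sum at a time gave between 7 and 34 higher genes and between 1 and 17 lower ones. Of 46 genes of the lists and named sets called, 5 kept the call in all 4 fits, among them Sema6a, Srgap3, Tnfrsf4 and Trdv4.

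Against the type 3 innate lymphoid cell-like cells, relatives that make interleukins 17 and 22 without a T cell receptor, 39 of 6432 genes were higher in members (0.606%) and 83 lower (1.29%). This comparison rests on 31 cells, 8 of them in CD163_NC. Members needed a Cd3e or Cd3g UMI and the innate cells were gated without CD3 or Trac, so differences in receptor genes are description. Cd247, the zeta chain of the receptor complex, stood at 545 and 461 CPM in members against 17.6 and 0 CPM (edgeR adjusted p = 0.00295), and Trbc2 was higher too. Sema6a had 224 UMIs in members and 0 in the innate cells, at least 34.9-fold higher. Blk, Abi3bp, Mcc, Ppp1r14c, Tshz1, Grap2 and Trpm6 were also higher, as were Icos and Ctla4. Trdv4 was higher in members, but the innate cells held 15 UMIs of it, and 5 of 23 and 3 of 8 of them had at least 1.

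On the lower side, Kit, the stem cell factor receptor, stood at 68.9 CPM in members of CD163_FL and 33.3 CPM in members of CD163_NC, against 614 and 171 CPM (edgeR adjusted p = 0.0270). Vegfa, Bmp2 and the chemokine Cxcl1 had 1, 1 and 0 UMIs in members against 103, 70 and 80 in the innate cells. Markers of other cell types were present in those innate cells. The myeloid genes Il1b and Cd14 were among the genes called lower in members; the innate cells of CD163_FL held 231 Il1b UMIs in 4 of 23 cells and 40 Cd14 UMIs in 3, and 309 of their 413 Cxcl2 UMIs were in 1 cell. Of the epithelial genes, 160 of 160 Krt8 UMIs and 271 of 274 Lypd8 UMIs in the 8 innate cells of CD163_NC were each in 1 cell. Without called doublets 49 genes were lower in members, against 83 with them, and Il1b no longer passed and changed sign (log2 fold change of 1.65, edgeR adjusted p = 0.651). The part of these cells in the other calls was not tested. Dscam, Zmat4, Cntn1, Ube2e2, Ccdc184, Hes1 and Gab2 were the others named by fold change. Il22 stood at 2.87 and 261 CPM in members against 6073 and 433 CPM and did not pass (edgeR adjusted p = 0.149). No gene kept its call in all 4 fits that left out 1 sum: without the members of CD163_FL 0 genes passed in edgeR (350 higher and 298 lower at an unadjusted p under 0.05), and without those of CD163_NC 1 was higher and 3 were lower, while without the innate cells of CD163_FL there were 223 and 214, and without those of CD163_NC 196 were lower.

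Between the 2 libraries, members were compared without a test. A gene counted as measured with at least 20 UMIs over the members of both, and 1.5-fold was used as a mark of size. Of 3873 measured genes 1016 (26.2%) reached that mark with the higher level in CD163_FL and 771 (19.9%) with the lower level there, with a median log2 ratio of 0.05. With at least 50 UMIs the counts were 512 and 329 of 1962 genes, and with members thinned to 1000 UMIs 268 and 172 of 882.

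Of 11 measured type 17 transcription factors 6 were at least 1.5-fold higher and 1 lower, with a median log2 ratio of 0.68. The same list had a median of 0.57 in other Trdc-positive T cells, with 6 of 12 higher and 2 lower, and of 0.33 in type 17 CD4 T cells. Stat3, which carries interleukin 23 signals, stood at 2933 CPM (1022 UMIs) in CD163_FL and 921 CPM (166 UMIs) in CD163_NC, a log2 ratio of 1.67 (counting interval 1.43 to 1.92). Rora stood at 4044 and 1976 CPM (log2 ratio 1.03, 0.86 to 1.20) and Id2 at 1774 and 605 CPM. Zbtb16, at 967 and 583 CPM, had a log2 ratio of 0.73 (0.41 to 1.06), while Maf was lower at 402 and 605 CPM (log2 ratio -0.59, -0.96 to -0.22). Rora and Stat3 had log2 ratios of 1.20 and 1.14 in the other Trdc-positive T cells as well, and of 0.54 and 1.00 in type 17 CD4 T cells.

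Of 8 measured checkpoint and costimulatory receptors 6 were higher and 1 lower, with a median of 1.21. Icos stood at 1217 CPM in CD163_FL and 350 CPM in CD163_NC (log2 ratio 1.80, 1.41 to 2.20), and Tnfrsf9 (4-1BB) at 755 and 244 CPM (1.63, 1.16 to 2.12). Havcr2 (TIM-3) had 42 UMIs in CD163_FL and 1 in CD163_NC (4.44, 1.88 to 9.78). Cd226 was lower at 135 and 239 CPM. The median of this list was 0.73 in other Trdc-positive T cells and 0.27 in type 17 CD4 T cells. Icos had the same order in both, at 185 and 60.9 CPM and at 1617 and 909 CPM.

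Of 12 measured cytokine receptors 5 were at least 1.5-fold higher and 1 lower, with a median of 0.45, against 0.84 in other Trdc-positive T cells and 0.04 in type 17 CD4 T cells. Il2ra stood at 1013 and 339 CPM in CD163_FL and CD163_NC (log2 ratio 1.58, 1.19 to 2.00) and Il18r1 at 1234 and 527 CPM (1.23, 0.90 to 1.56), whereas Il1r1 (583 and 466 CPM) and Il7r (540 and 544 CPM) had intervals that include 0. Areg stood at 1002 CPM in CD163_FL and 205 CPM in CD163_NC (2.29, 1.79 to 2.82), with 70.3% of its UMIs in CD163_NC in 1 cell. Both Areg and Il2ra had the same order elsewhere. In other Trdc-positive T cells Areg stood at 23.1 and 11.3 CPM and Il2ra at 108 and 58.6 CPM. In type 17 CD4 T cells they stood at 255 and 88.4 CPM and at 221 and 204 CPM. Tnf was lower in CD163_FL, at 97.6 and 233 CPM (-1.26, -1.95 to -0.57). Il22 had 1 UMI in members of CD163_FL and 47 in members of CD163_NC (log2 ratio -6.51, -11.84 to -3.96). Those 47 UMIs came from 6 of 27 members and 31 of them from 1 cell, which held Il23r, Cd163l1 and Trdv4 UMIs but no Il17a. In type 17 CD4 T cells Il22 stood at 62.5 and 299 CPM, the same order, whereas the innate cells held 6073 and 433 CPM, the opposite one.

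Homing genes split. Cxcr4, the receptor for CXCL12, stood at 399 CPM in CD163_FL and 83.3 CPM in CD163_NC (2.26, 1.49 to 3.14), and Cxcr6 at 551 and 366 CPM (0.59, 0.18 to 1.01). The integrin chain Itgb7, part of the gut homing receptor, stood at 250 and 411 CPM (-0.72, -1.18 to -0.25), Cd69 at 364 and 611 CPM and Klf2 at 212 and 488 CPM. Of the 18 measured genes reported in Vgamma6 cells 7 were higher and 8 lower, with a median of -0.09; Igf1r stood at 2844 and 966 CPM and S100a6 at 904 and 2043 CPM.

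**Figure D3:**
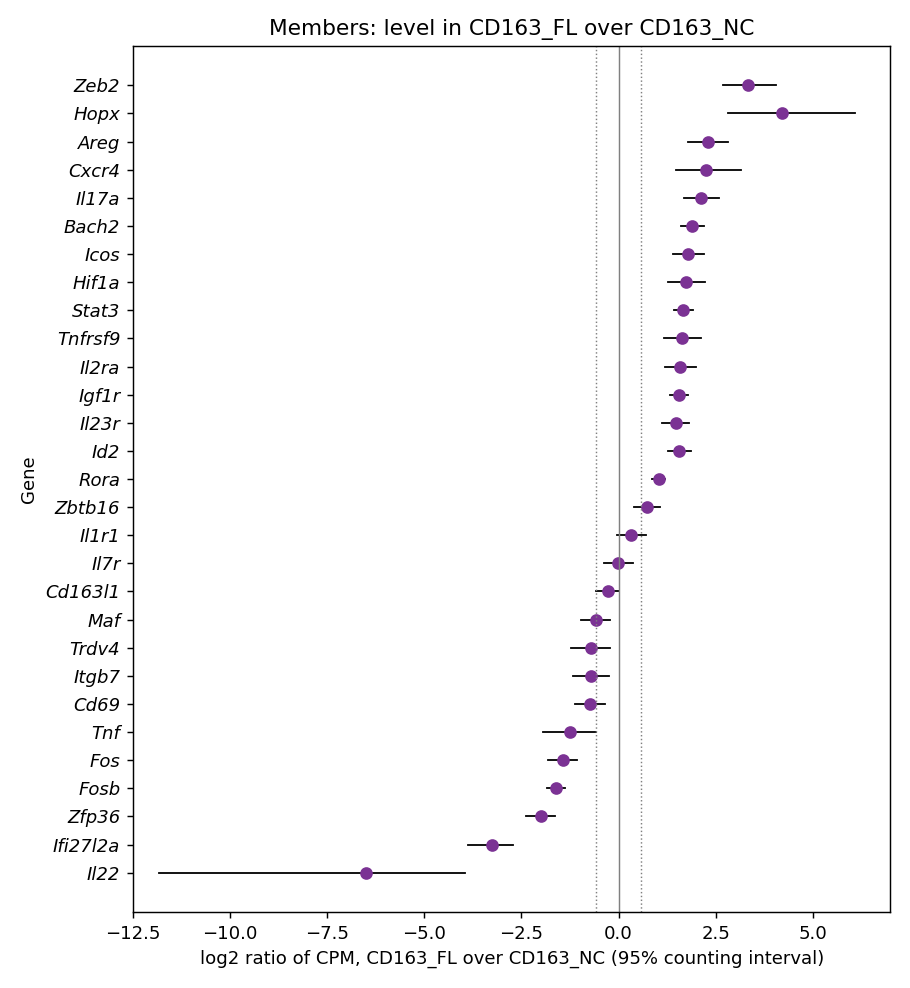
Log2 ratio of members' CPM, CD163_FL over CD163_NC (horizontal axis, points with 95% counting intervals), for 29 genes, with dotted lines at 1.5-fold either way. Il17a, Il23r and Cd163l1 are genes of the gate, and their ratios are shown as description. Icos (1.80), Stat3 (1.67) and Il2ra (1.58) lie right of the dotted line, Il7r (-0.01) lies on the zero line, and Il22 (-6.51), with 1 UMI in CD163_FL, has the widest interval.

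Activation and interferon-response genes were lower in CD163_FL. Of 19 activation and tissue-dissociation genes 14 were at least 1.5-fold lower and 1 higher (median -1.03); Fosb stood at 781 and 2381 CPM (-1.61, -1.83 to -1.39), Zfp36 at 264 and 1055 CPM and Egr1 at 115 and 599 CPM. The same list had medians of -1.06 in other Trdc-positive T cells and -1.09 in type 17 CD4 T cells. Of 10 interferon-response genes 7 were lower and 0 higher (median -1.25, against -0.75 and -0.28 in those populations). Ifi27l2a stood at 89.0 CPM in CD163_FL and 860 CPM in CD163_NC (-3.27, -3.88 to -2.71), and Isg15 at 89.0 and 316 CPM. Of 8 lipid and mitochondrial genes 5 were lower and 0 higher (median -0.70), and of 11 glycolysis and hypoxia genes 4 were lower and 1, Hif1a, was higher (815 and 244 CPM). Since activation, ribosomal and mitochondrial shares all differ between the libraries, their part in the other ratios was not tested.

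**Figure D4:**
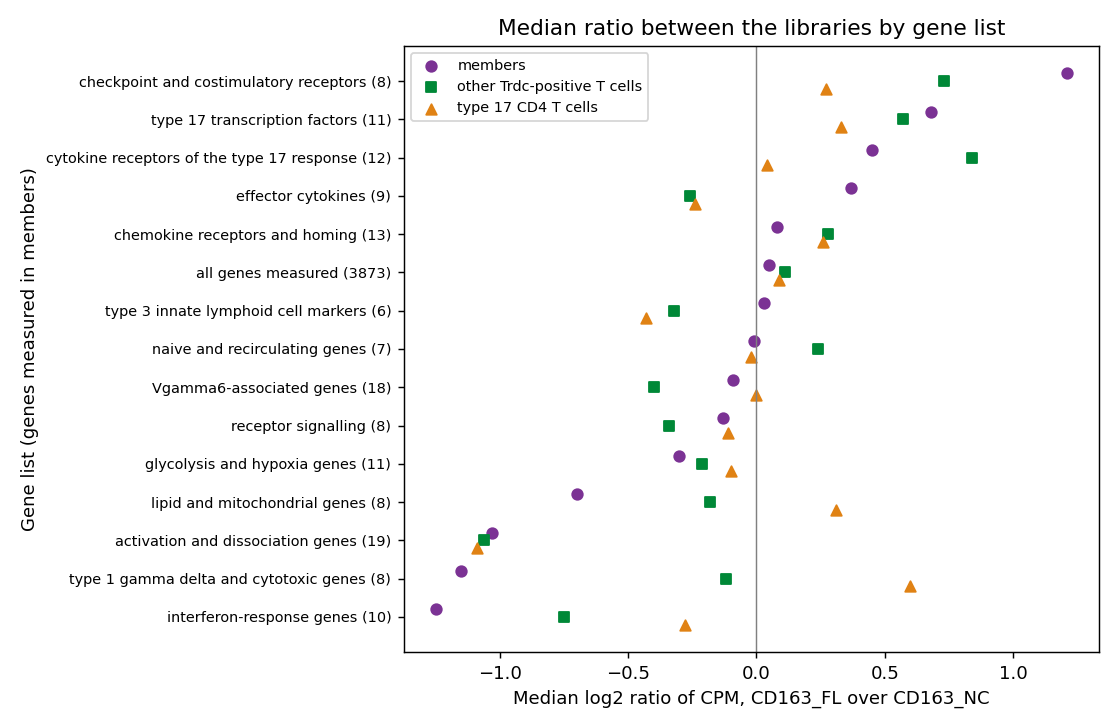
Median log2 ratio of CPM, CD163_FL over CD163_NC (horizontal axis), for each gene list with 5 or more genes measured in members (rows), as circles for members, squares for other Trdc-positive T cells and triangles for type 17 CD4 T cells. The activation and dissociation list lies near -1 in all 3, while members have the highest median of the checkpoint list (1.21) and the lowest of the interferon-response list (-1.25).

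Cytotoxic genes in members of CD163_NC came largely from 1 cell. That cell held 130 of 148 Ccl5 UMIs, 66 of 66 Gzma UMIs, 61 of 109 Gzmb UMIs and 25 of 47 Nkg7 UMIs. It had 32 Trdc and 14 Cd163l1 UMIs and none of Trdv4, Il23r, Il17a or Il1r1. The summed type 1 and cytotoxic list stood at 1205 CPM in CD163_FL and 2703 CPM in CD163_NC, and at 1128 CPM in CD163_NC without the cell.

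Among the genes named by ratio, with at least 30 UMIs in the higher library, Zeb2 had the most UMIs. This zinc finger repressor stood at 1122 CPM (391 UMIs) in CD163_FL and 111 CPM (20 UMIs) in CD163_NC, a log2 ratio of 3.34 (2.69 to 4.06); its log2 ratio was 2.58 in other Trdc-positive T cells and 2.32 in type 17 CD4 T cells. Hopx stood at 408 and 22.2 CPM (4.20, 2.81 to 6.09), Prickle1 at 353 and 16.7 CPM and Slc41a2, a magnesium transporter, at 258 and 22.2 CPM. Kcnn4, Jcad, Xkr6, Edil3, Bmpr2, Mysm1 and Cyfip1 had 1 to 3 UMIs in CD163_NC and log2 ratios of up to 4.30; thinning to 1000 UMIs turned the sign of Bmpr2, Mysm1 and Cyfip1. On the lower side, Osgin1 stood at 23.0 CPM in CD163_FL and 189 CPM in CD163_NC, the survival gene Bcl2 at 43.0 and 205 CPM, and the interferon-inducible genes Rnf213 and Epsti1 at 54.5 and 322 CPM and at 43.0 and 211 CPM. Atp5g1 and Rinl were lower with no cell holding more than 6 of their UMIs. For Txndc16 and Rad51b, 31 of 37 and 40 of 49 UMIs in CD163_NC were in 1 cell.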

How the data were processed

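Single-cell libraries were made with a 10x 3' kit of version 3, per the labels' protocols. The authors deposited UMI counts per gene and barcode, written by Cell Ranger 7.1.0 per the file headers. The build mm10 and Seurat 4 are named in the submitters' processing notes with no role, and correction for free RNA is not given in the sources used here. The deposited totals were 131306539 UMIs in CD163_FL and 94729872 UMIs in CD163_NC, over 15270 and 10390 barcodes.

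The members and gene lists were chosen with earlier results of these data known. Genes used by a gate were left out of calls. Type 17 CD4 T cells had Cd4, a CD3 chain and Il17a, Il17f or Il23r, without Trdc, Foxp3, Cd8b1 or Cd79a. Raw UMIs were summed per library and population and tested with edgeR 4.0.16 (R 4.3.3; TMM, filterByExpr, glmQLFTest, library as block, Benjamini-Hochberg adjustment over all genes tested, threshold 0.05). The script was tested on simulated data. The shared library is a true pairing, since both populations of a pair were captured together. Between libraries, CPM of summed UMIs were compared with exact 95% intervals for counting error and no test; measured genes had at least 20 UMIs. An upper limit for a count of 0 is 3 counts. Doublets were called with Scrublet in scanpy 1.11.5 and kept; the caller expected 12.2% in CD163_FL and 8.31% in CD163_NC.

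Genes outside the lists were named by a rule. Between populations it took the 10 largest fold changes each way with at least 50 UMIs in the higher population and the same sign in both libraries. Between libraries it took the 12 largest ratios each way, with at least 30 UMIs and a UMI in at least 10% of members in the higher library, and a level there of at least 0.5 times that over all cells. Alternatives changed the Trdc threshold, depth, mitochondrial limit, doublets, scaling, filter, tool (DESeq2 1.42.0), block and the sums used. Some genes are not reported here.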

Additional observations from a re-analysis of the deposited data

How the results depend on the processing

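The ratio of members among all cells lay between 1.24 and 1.66 over its alternatives, and among Trdc-positive T cells between 1.22 and 1.37. Requiring members without any alpha or beta constant UMI left no member in CD163_NC, so it gave no value. Genes at least 1.5-fold higher and lower in CD163_FL numbered 268 and 172 with members thinned to 1000 UMIs, 512 and 329 with at least 50 UMIs, and 2158 and 2938 with no minimum. Without a filter, 295 genes were higher and 213 lower than in other Trdc-positive T cells, 194 and 161 against type 17 CD4 T cells, and 165 and 320 against the innate lymphoid cell-like cells. With no replicate block (no pairing by library) the counts were 83 and 22, 34 and 19, and 3 and 19. Lower genes against the innate cells numbered 49 without called doublets and 43 after thinning.

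Leaving out 1 sum gave 20 to 125 higher and 3 to 78 lower genes against other Trdc-positive T cells, 7 to 34 and 1 to 17 against type 17 CD4 T cells, and 0 to 223 and 0 to 214 against the innate cells; a lone sum was assumed to vary like the others. Signs turned after thinning for Bmpr2 (-0.22), Mysm1 (-0.81), Cyfip1 (-0.81), the gamma delta segment median (0.26) and the type 1 and cytotoxic median (0.62). Il1b against the innate cells turned to a log2 fold change of 1.65 without called doublets (edgeR adjusted p = 0.651) and 4.78 without their CD163_FL sum (edgeR adjusted p = 0.666), and was -5.91 without their CD163_NC sum. The cause was not tested. With the cell richest in each gene left out of each library, an alternative chosen after seeing the data, list medians were -0.39 for type 1 and cytotoxic genes, -0.38 for intraepithelial genes, -0.91 for activation genes, -1.18 for interferon-response genes and 1.44 for checkpoint genes. With 90 members and 1 library per name, genes of few UMIs could not be compared closely.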
